A study of Mus musculus with 15 samples.

Results

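To follow the lymphoid fate that C10 cells do not take when they become macrophages, histone marks were read at 10 genes of the T cell lineage: Notch1, Tcf7, Gata3, Bcl11b, Lck, Cd3e, Cd3d, Cd3g, Cd4 and Cd8a. The genes were chosen by name, and all 10 of them were found among 22350 protein-coding genes on chromosomes 1 to 19 and X. C10 is a single mouse cell line derived from HAFTL pre-B cells and carries C/EBPα fused to the estrogen receptor with GFP. Per the labels, cells were induced with 100 nM β-estradiol in the presence of IL-3 and CSF-1 (10 nM), and control cells received 0.1% ethanol. The study's methods give the estradiol dose in micromolar units instead. H3K27Ac (a mark of active starts and enhancers), H3K4Me1 (found at enhancers whether or not they are active) and H3K27Me3 (the mark laid down by Polycomb complexes on silent genes) were mapped by ChIP-seq at 0, 3, 12, 24 and 48 hr post-induction (hpi). The 15 libraries hold 1 sample for each mark and time, so the spread between replicates is unknown, differences between times were not tested and no p-value is given.

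T cells arise from progenitors that meet Notch ligands in the thymus. Notch1 is the receptor for that signal, and its cleaved inner part switches on target genes together with the DNA-binding factor Rbpj. Tcf7 (the factor TCF-1), Gata3 and Bcl11b are transcription factors that act early in the T program, with Bcl11b closing off other fates. The Cd3 chains carry the signal of the T cell receptor, the kinase Lck passes it on, and Cd4 and Cd8a are the co-receptors of helper and cytotoxic T cells. A pre-B cell shares its lymphoid origin with T cells, so some of these genes need not be silent in it.

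Levels are tags (single aligned reads, 1 kept per position) in 3 kb centred on a gene's start for H3K27Ac and H3K4Me1, and in 5 kb for H3K27Me3. Libraries of a mark were thinned to the same number of tags. The deposited libraries held 15.93 to 18.56 M tags for H3K27Ac, 11.04 to 17.85 M for H3K4Me1 and 15.36 to 31.56 M for H3K27Me3. The genome means were 18.28 tags per 3 kb for H3K27Ac, 13.11 per 3 kb for H3K4Me1 and 30.46 per 5 kb for H3K27Me3. A window was called enriched from 34, 27 and 50 tags, respectively, the counts whose Poisson upper tail fell below 0.001. Changes are log2 ratios of 48 over 0 hpi with 5 tags added to each count, and at least 2-fold is called higher or lower. Intervals in brackets are exact 95% intervals of the raw log2 ratio and cover counting error only.

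The H3K27Ac libraries of 0 and 3 hpi stood apart. They held 331 and 230 tags around the Adam6 genes in the immunoglobulin heavy chain locus, while the other 13 libraries held 0 to 4. H3K27Ac changes of members and named windows that were at least 2-fold, or near it, are therefore also given from 12 to 48 hpi, without those libraries. That comparison also leaves out the first 12 hr of induction. A change said below to rest on the libraries of 0 and 3 hpi may be early or a difference of libraries. These cannot be told apart. The labelled cell type showed in its markers, since 8 of 8 B lineage starts were enriched in H3K27Ac at 0 hpi and 8 were lower at 48 hpi (median log2 change -1.5, lowest for Pax5 and Cd79a at -1.97), while macrophage starts went from 5 to 8 of 8 enriched and 8 were higher (median 2.88, highest for Il1b at 5.13 and Cd14 at 5.04). From 12 to 48 hpi the 8 B lineage starts were all lower and the 8 macrophage starts all higher, but only 4 (median -0.84) and 2 (median 0.73) of them by at least 2-fold, so most of the marker calls rest on the libraries of 0 and 3 hpi. Of 8 genes used in every cell, 8 were acetylated at both times and 0 were at least 2-fold higher or lower, with changes of -0.81 at Tbp, -0.74 at Ppia and 0.51 at Gapdh, while from 12 hpi 1 was lower (Tbp, -1.02). Of 9 matched regulators of tissues other than blood, 0 were enriched in H3K27Ac at any time, with changes from -1.0 at Pax6 and Tbx5 to -0.14 at Neurod1 and 0.36 at Olig2, and 4 were enriched in H3K27Me3 at 0 hpi and 3 at 48 hpi. The median change over all starts was -0.14 for H3K27Ac, -0.27 for H3K4Me1 and 0 for H3K27Me3. Scaling to bins without enrichment would shift H3K4Me1 at 48 hpi by 0.59 on the log2 scale, H3K27Me3 by 0.16 and H3K27Ac by 0.02, while scaling to always enriched bins would shift H3K27Ac by 0.41, H3K4Me1 by 0.06 and H3K27Me3 by -0.17. Starts with few tags move by less than this, because 5 tags are added to each count. For H3K27Ac the shift by bins without enrichment was -0.11 at 12 hpi and 0.67 at 24 hpi, so the order of those 2 times depends on the scaling.

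By H3K27Ac and H3K27Me3, the 10 genes fell into 3 chromatin states in the libraries of uninduced cells (0 hpi). These states join an H3K27Ac library with 331 tags around Adam6 to H3K4Me1 and H3K27Me3 libraries with 0 and 2. Whether all of them came from the same culture is not given. At the 5′ starts, Notch1, Tcf7 and Gata3 were acetylated, 6 genes (Lck, Cd3e, Cd3d, Cd3g, Cd4 and Cd8a) carried H3K27Me3 without H3K27Ac, and Bcl11b carried none of the 3 marks. H3K4Me1 divided the H3K27Me3 genes further. It was enriched at Lck, Cd3d and Cd3g (81, 30 and 35 tags) but not at Cd3e, Cd4 and Cd8a (8, 14 and 11). The acetylated starts of Notch1, Tcf7 and Gata3 were enriched in it too. A further Lck start 15.2 kb in, used by 3 of 4 coding transcripts, was enriched in both H3K27Ac and H3K27Me3. H3K27Ac was enriched at the same 3 starts at each of the 5 times. Over all starts the share was 46.3, 46.8, 47.1, 46.7 and 47.2% in the same order of times. H3K27Me3 was enriched at 6, 5, 7, 6 and 7 of the 10 starts in the order of time, while 21.9, 20.6, 23.5, 21.8 and 23.8% of all starts were. The 6 were the genes with H3K27Me3 named above, without Lck at 3 hpi and with Gata3 as the seventh at 12 and 48 hpi. H3K4Me1 was enriched at 6, 4, 4, 6 and 5 of the 10, against 44.8, 48.1, 47.1, 43 and 40.6% of all starts. These counts depend on the limit. At 48 hpi the H3K4Me1 count of 5 came to 1 in windows of 1 kb, 3 at a Poisson limit of 1e-05 and 0 against a local mean over 100 kb, and against that mean H3K27Ac came to 1 and H3K27Me3 to 3 at 0 and 4 at 48 hpi.

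**Figure D1:**
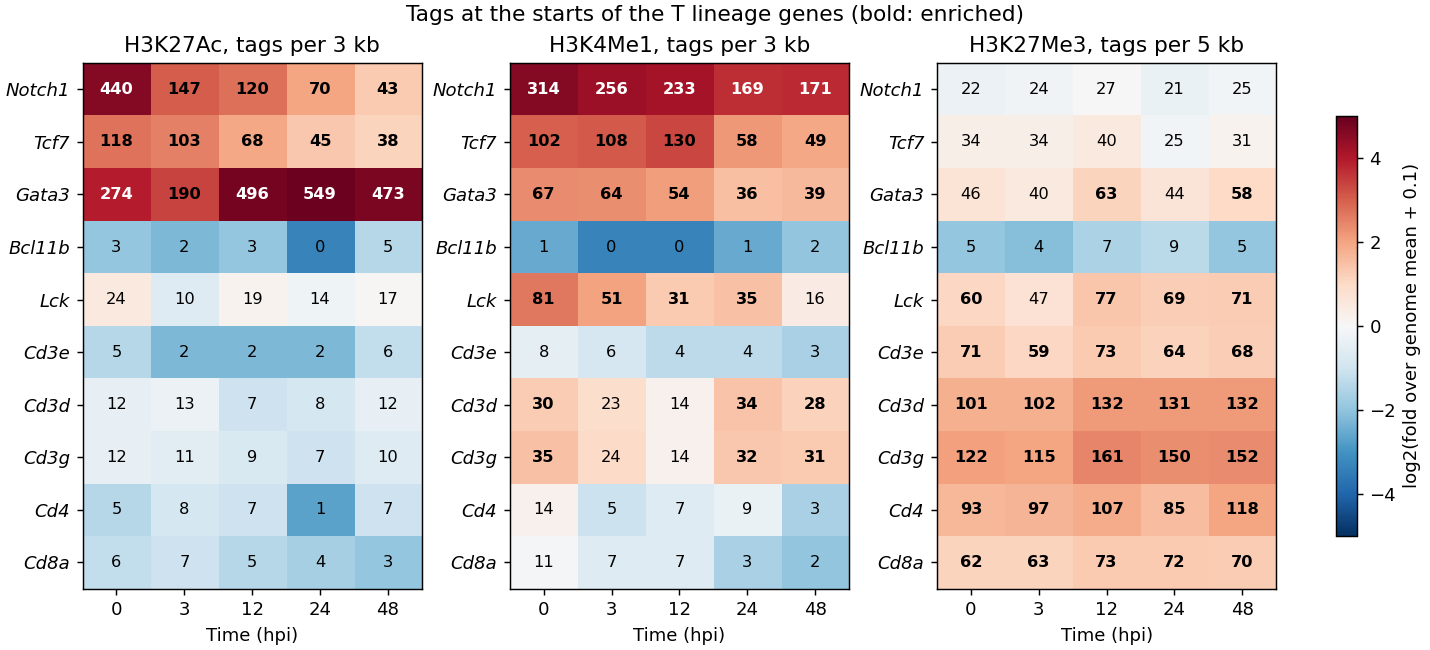
Tags at the 5′ starts of the 10 genes (rows) at 5 times (columns) for 3 marks, coloured by the log2 of the fold over the genome mean with 0.1 added and printed in bold where enriched. H3K27Ac at Notch1 goes from 440 to 43 tags, Cd3g holds 115 to 161 H3K27Me3 tags at all times, and Bcl11b holds at most 9 tags of any mark.

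Between 0 and 48 hpi, 0 of 10 starts were at least 2-fold higher in H3K27Ac, where 5.31% of all starts were, and 2 (Notch1 and Tcf7) were lower, where 9.3% were. In H3K4Me1, 0 starts were higher against 3.4% of all, and 3 (Lck, Cd4 and Cd8a) were lower against 9.58%. Of these 3, Cd4 and Cd8a went from 14 to 3 and from 11 to 2 tags and were not enriched at any time, and scaling to bins without enrichment leaves only Lck. Another random thinning of the same libraries leaves 2, with Cd8a at -0.78. In H3K27Me3, 0 starts were higher and 0 were lower, against 0.823 and 1.45% of all starts. The median log2 change over the members was -0.09 for H3K27Ac, -0.78 for H3K4Me1 and 0.19 for H3K27Me3. No member had H3K27Ac at 3, 12 or 24 hpi that lay at least 2-fold above, or below, both 0 and 48 hpi, a pattern found at 1.98 and 1.49% of all starts.

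**Figure D2:**
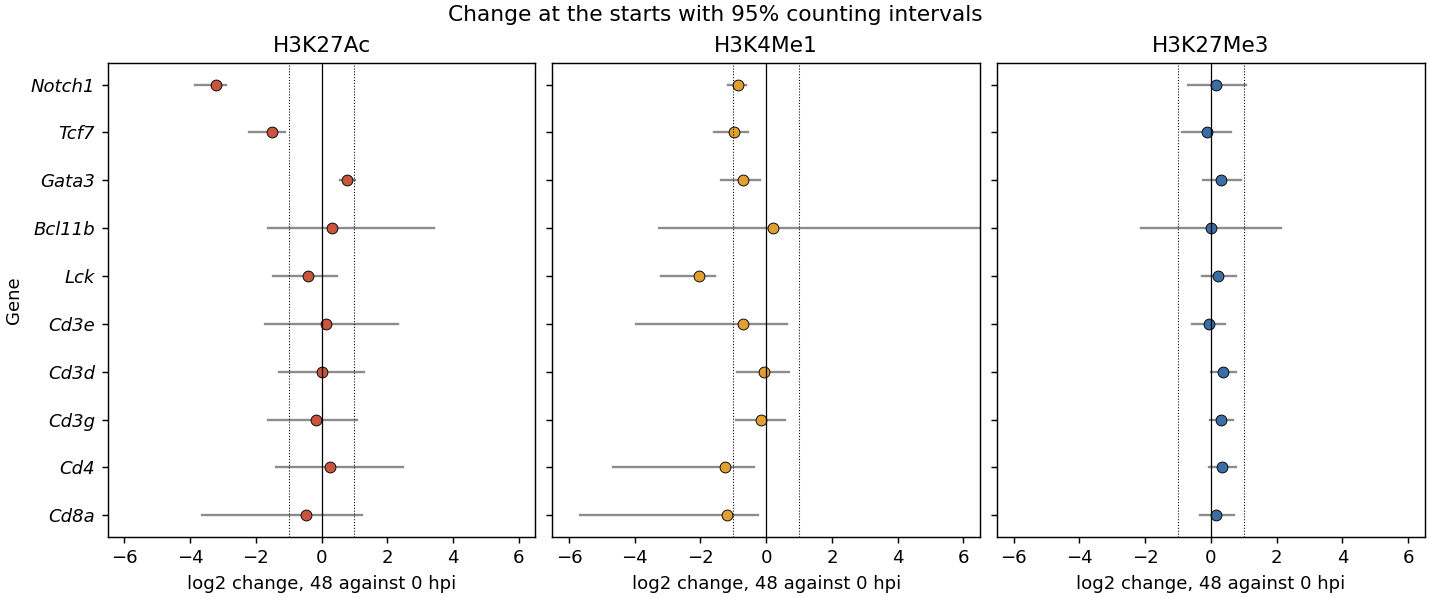
Log2 change of tags from 0 to 48 hpi at the start of each gene (points, 5 tags added) for 3 marks, with 95% counting intervals of the raw ratio (bars, clipped at the axis) and 2-fold limits (dotted). Notch1 (-3.21) and Tcf7 (-1.52) lie below the lower limit in H3K27Ac and Lck (-2.03) in H3K4Me1, while all H3K27Me3 points lie between -0.12 and 0.37.

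The sequence at the starts also differed. CpG dinucleotides observed over expected in the 1 kb around the start came to 0.90 at Tcf7 and 0.79 at Bcl11b, higher than at 91.5 and 78.1% of all starts, where the median was 0.55. The 6 genes under H3K27Me3 lay between 0.16 (Cd3g) and 0.36 (Cd8a), all below that median. Gata3 was at 0.48 and the 5′ start of Notch1 at 0.25, while a Notch1 start 12.8 kb into the gene was at 0.72. Examples are shown to compare these states, as the 250 bases before the start in mm9, 5′ to 3′ on the gene's strand, with CpG dinucleotides in capitals. They are Tcf7 (acetylated, minus strand, chr11:52096682-52096931, 43 CpG), Bcl11b (no mark, minus strand, chr12:109241813-109242062, 9 CpG) and Cd3d (H3K27Me3, plus strand, chr9:44789626-44789875, 0 CpG).
Tcf7: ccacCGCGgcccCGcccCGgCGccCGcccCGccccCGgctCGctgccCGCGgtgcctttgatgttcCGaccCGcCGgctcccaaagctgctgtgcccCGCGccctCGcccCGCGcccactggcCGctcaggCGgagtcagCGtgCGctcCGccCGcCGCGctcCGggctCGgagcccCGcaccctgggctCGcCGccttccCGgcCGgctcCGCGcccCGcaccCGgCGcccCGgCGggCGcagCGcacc
Bcl11b: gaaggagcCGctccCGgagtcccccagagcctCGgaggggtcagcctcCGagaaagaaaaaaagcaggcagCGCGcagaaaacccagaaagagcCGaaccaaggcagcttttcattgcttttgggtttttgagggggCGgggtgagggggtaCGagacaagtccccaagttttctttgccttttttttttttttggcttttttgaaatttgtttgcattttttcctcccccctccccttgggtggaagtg
Cd3d: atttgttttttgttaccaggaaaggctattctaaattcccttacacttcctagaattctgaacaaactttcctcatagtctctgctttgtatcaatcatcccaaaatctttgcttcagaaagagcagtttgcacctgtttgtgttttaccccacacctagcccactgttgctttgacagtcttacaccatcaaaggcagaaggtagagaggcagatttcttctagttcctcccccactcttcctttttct
CpG-rich starts occurred both with H3K27Ac (Tcf7) and without any of the marks (Bcl11b), and the H3K27Me3 of the Cd genes and Lck lay at CpG-poor starts.

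**Figure D3:**
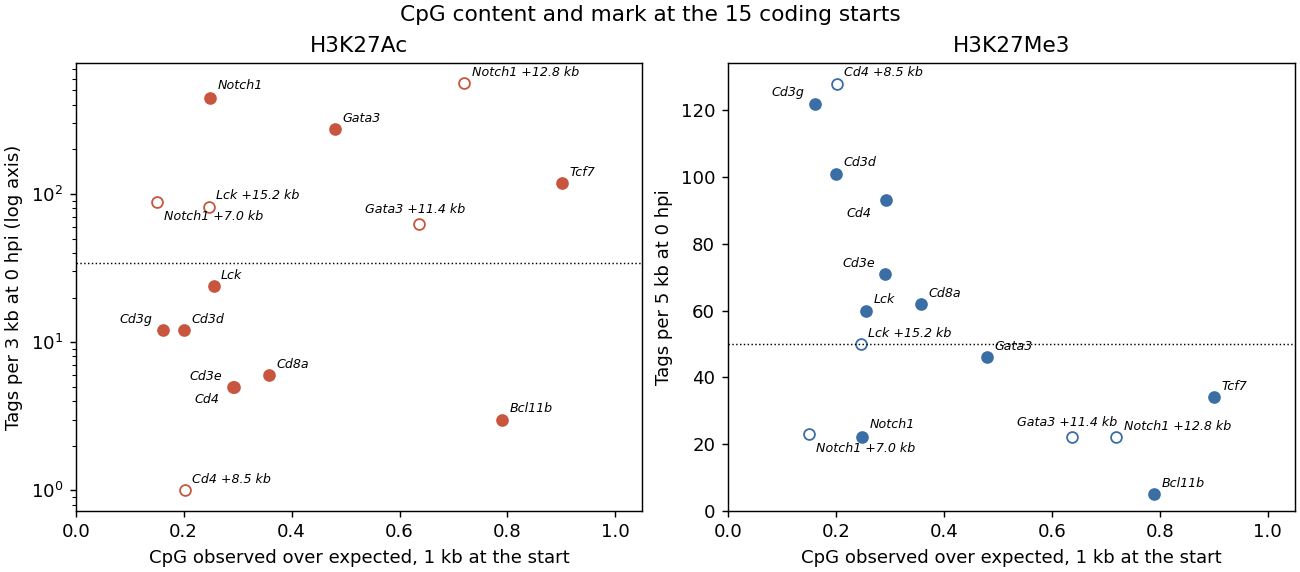
Tags at 0 hpi (vertical axes, log scale for H3K27Ac) against CpG observed over expected at the 15 coding starts of the 10 genes, with the 5′ start of each gene as a filled point, further starts as open points and the count needed for enrichment dotted. The starts enriched in H3K27Me3 all lie at or below 0.36 on the CpG axis, and Bcl11b at 0.79 holds 3 H3K27Ac and 5 H3K27Me3 tags.

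Notch1, on the minus strand at chr2:26313423-26372183, had the largest H3K27Ac change of the 10 starts. Its 5′ start held 440, 147, 120, 70 and 43 H3K27Ac tags at 0, 3, 12, 24 and 48 hpi, a log2 change of -3.21 [-3.84, -2.90]. Scaled to bins without enrichment, the same start held 111 tags at both 12 and 24 hpi and 43.7 at 48 hpi. The start went from above 87.6% of all starts to above 54.2%. From 12 to 48 hpi the change was -1.38 [-2.02, -0.97]. H3K4Me1 at the same start held 314, 256, 233, 169 and 171 tags (log2 change -0.86), which becomes -0.28 when scaled to bins without enrichment, and the start stayed enriched throughout. H3K27Me3 held 21 to 27 tags and was never enriched.

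The loss at Notch1 was local. The intronic window centred 3 kb into the gene (chr2:26367683-26370682) held 697, 251, 118, 51 and 53 H3K27Ac tags, a log2 change of -3.60 [-4.15, -3.31], or -1.08 [-1.65, -0.68] from 12 hpi. A start 7.0 kb in held 88, 55, 96, 71 and 61 tags (-0.49, and -0.61 [-1.14, -0.18] from 12 hpi). The CpG-rich start at 12.8 kb held 556, 450, 428, 522 and 232 (-1.24 [-1.49, -1.04], and -0.87 [-1.12, -0.65] from 12 hpi). It is used by 2 of 5 coding transcripts, as many as the 5′ start. Further in, the window at 33 kb was as strong at 48 as at 0 hpi, with 673, 458, 660, 1019 and 671 tags (log2 change 0.00). The strongest gain lay outside the gene, 18 kb upstream (chr2:26388683-26391682), where H3K27Ac went through 37, 84, 296, 419 and 517 tags (3.64 [3.32, 4.33]). H3K4Me1 there went through 50, 72, 245, 384 and 406 tags (2.90 [2.60, 3.48]). Both marks were enriched in this window at 0 hpi, and its gain from 12 hpi on was 0.79 [0.60, 1.02].

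Across the Notch1 gene and 20 kb on each side, 24 of 33 windows of 3 kb were enriched in H3K27Ac at 0 hpi and 28 at 48 hpi. Among windows enriched at either time, 9 were at least 2-fold higher, most of them 18 to 51 kb into the gene, and 5 were lower, of which 4 lay within the first 12 kb. H3K4Me1 was enriched in 29 of 33 windows at both times, with 7 higher and 2 lower. The locus as a whole held 8.95 times the genome mean of H3K27Ac at 0 hpi, 7.94 at 12 hpi and 9.08 at 48 hpi. From 12 to 48 hpi, 7 windows were higher in H3K27Ac, and 2, at the start and 3 kb in, were lower, so part of the 0 to 48 hpi counts rests on the libraries of 0 and 3 hpi. Scaled to bins without enrichment, 9 windows were higher and 0 lower in H3K4Me1.

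The sequence of the Notch1 elements that moved most is shown as the 300 bases with the most H3K27Ac tags within each of those windows, at 0 hpi for the falling and at 48 hpi for the rising one (plus strand of mm9, with matches to the C/EBP, PU.1 and EBF motifs in capitals). The intronic stretch at chr2:26369163-26369462 held 142, 44, 20, 10 and 7 H3K27Ac tags, and the upstream stretch at chr2:26389953-26390252 held 7, 22, 77, 101 and 121.
Notch1 intron, falling: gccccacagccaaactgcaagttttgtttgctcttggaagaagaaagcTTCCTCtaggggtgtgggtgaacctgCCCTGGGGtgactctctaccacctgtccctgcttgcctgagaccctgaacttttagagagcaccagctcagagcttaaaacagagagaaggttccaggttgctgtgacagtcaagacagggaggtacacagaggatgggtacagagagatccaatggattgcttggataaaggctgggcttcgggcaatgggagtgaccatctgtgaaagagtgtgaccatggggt
Notch1 upstream, rising: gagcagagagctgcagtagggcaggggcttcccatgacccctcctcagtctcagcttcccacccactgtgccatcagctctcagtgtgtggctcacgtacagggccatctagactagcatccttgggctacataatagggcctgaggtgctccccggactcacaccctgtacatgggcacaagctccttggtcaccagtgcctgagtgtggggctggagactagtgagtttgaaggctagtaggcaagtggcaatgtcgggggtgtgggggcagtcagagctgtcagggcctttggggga
The falling stretch holds 1 match each to the PU.1 letters GAGGAA and the EBF letters CCCNNGGG, on either strand, and 0 to the C/EBP letters TTNNGNAA. The rising stretch holds 0 of these and 2 matches to the Rbpj letters TGGGAA. In windows of the same length at all 22350 starts, 28.09% held the PU.1 letters, 15.07% the EBF letters, 38.84% the C/EBP letters and 24.31% the Rbpj letters. Shares away from starts were not computed. A falling stretch chosen in the same way in Tcf7, 15 kb into the gene (chr11:52082451-52082750), went from 122 to 10 H3K27Ac tags. It held 0 matches to any of these letters.

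Tcf7 (minus strand, chr11:52065873-52096681) was acetylated in uninduced cells, and H3K27Ac was lower over much of the gene at 48 hpi. At its start H3K27Ac held 118, 103, 68, 45 and 38 tags, a log2 change of -1.52 [-2.20, -1.10], or -0.76 [-1.45, -0.25] from 12 hpi. Scaled to bins without enrichment it was 63 tags at 12, 71.6 at 24 and 38.6 at 48 hpi. The start at 48 hpi just passed the count needed for enrichment. H3K4Me1 held 102, 108, 130, 58 and 49 tags, with the fall after 12 hpi (-0.99, or -0.44 scaled to bins without enrichment).

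Stronger acetylation lay inside Tcf7. The window at 9 kb (chr11:52086181-52089180) held 648, 396, 426, 463 and 252 H3K27Ac tags (-1.35 [-1.58, -1.15], and -0.75 [-0.99, -0.53] from 12 hpi). The window at 15 kb (chr11:52080181-52083180), an intron of Tcf7 that also holds the first exon of the noncoding gene Gm16953, held 498, 230, 136, 95 and 58 tags (-3.0 [-3.52, -2.71], and -1.16 [-1.70, -0.78] from 12 hpi). H3K4Me1 in the window at 15 kb went through 421, 341, 320, 263 and 162 tags (-1.35, or -0.78 scaled to bins without enrichment). Upstream, the window 12 kb before the start held 223, 175, 335, 298 and 207 H3K27Ac tags, close at 0 and 48 hpi but lower from 12 to 48 hpi (-0.68), as at the start. Over the locus 6 windows were at least 2-fold lower in H3K27Ac and 6 in H3K4Me1, with 0 higher in either, and the locus level went from 6.20 to 2.86 times the genome mean in H3K27Ac and from 8.41 to 4.68 times in H3K4Me1. From 12 to 48 hpi H3K27Ac was at least 2-fold lower in 3 windows, 1 of them 9 kb upstream (-1.14), and went from 4.62 to 2.86 times. Scaled to bins without enrichment, H3K4Me1 went only from 8.41 to 7.03 times, with 1 window lower and 1 higher. None of its 23 windows was enriched in H3K27Me3 at any time.

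Gata3 (minus strand, chr2:9778705-9811661) kept its acetylation. Its start held 274, 190, 496, 549 and 473 H3K27Ac tags, a log2 change of 0.78 [0.57, 1.01], and -0.07 [-0.25, 0.12] from 12 to 48 hpi. The libraries of 0 and 3 hpi were thus the low ones. The window is shared with the start of 9230102O04Rik, only 494 bp away, and tags of both starts cannot be told apart. A second Gata3 start 11.4 kb in, apart from that gene but overlapped by the noncoding gene Gm13256, held 63, 46, 145, 139 and 124 tags (0.92 [0.53, 1.44], and -0.22 [-0.58, 0.13] from 12 hpi), so its gain too rests on the libraries of 0 and 3 hpi.

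Around Gata3, active and repressive marks lay side by side. All 6 windows upstream of the start were enriched in H3K27Me3 at 0 hpi (36 to 68 tags per 3 kb, where 34 are needed) and again at 48 hpi (54 to 84), while the start window itself held 26 and 33. The H3K4Me1 window 12 kb upstream went through 14, 13, 9, 30 and 63 tags (1.84 [1.32, 3.12]) inside that H3K27Me3 stretch. In the gene, the window at 21 kb went through 7, 7, 26, 29 and 41 H3K27Ac tags (1.94 [1.38, 3.95]). From 12 hpi that gain was 0.57 [-0.09, 1.42], an interval that includes 0, and most of the difference lay between the libraries of 3 and 12 hpi. The intronic window at 18 kb went through 157, 64, 175, 109 and 102 tags (-0.60, and -0.75 [-1.15, -0.42] from 12 hpi). In such bulk chromatin, a mark on fewer cells and less of the mark per cell cannot be told apart, nor can both marks on the same alleles and each on different cells.

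**Figure D4:**
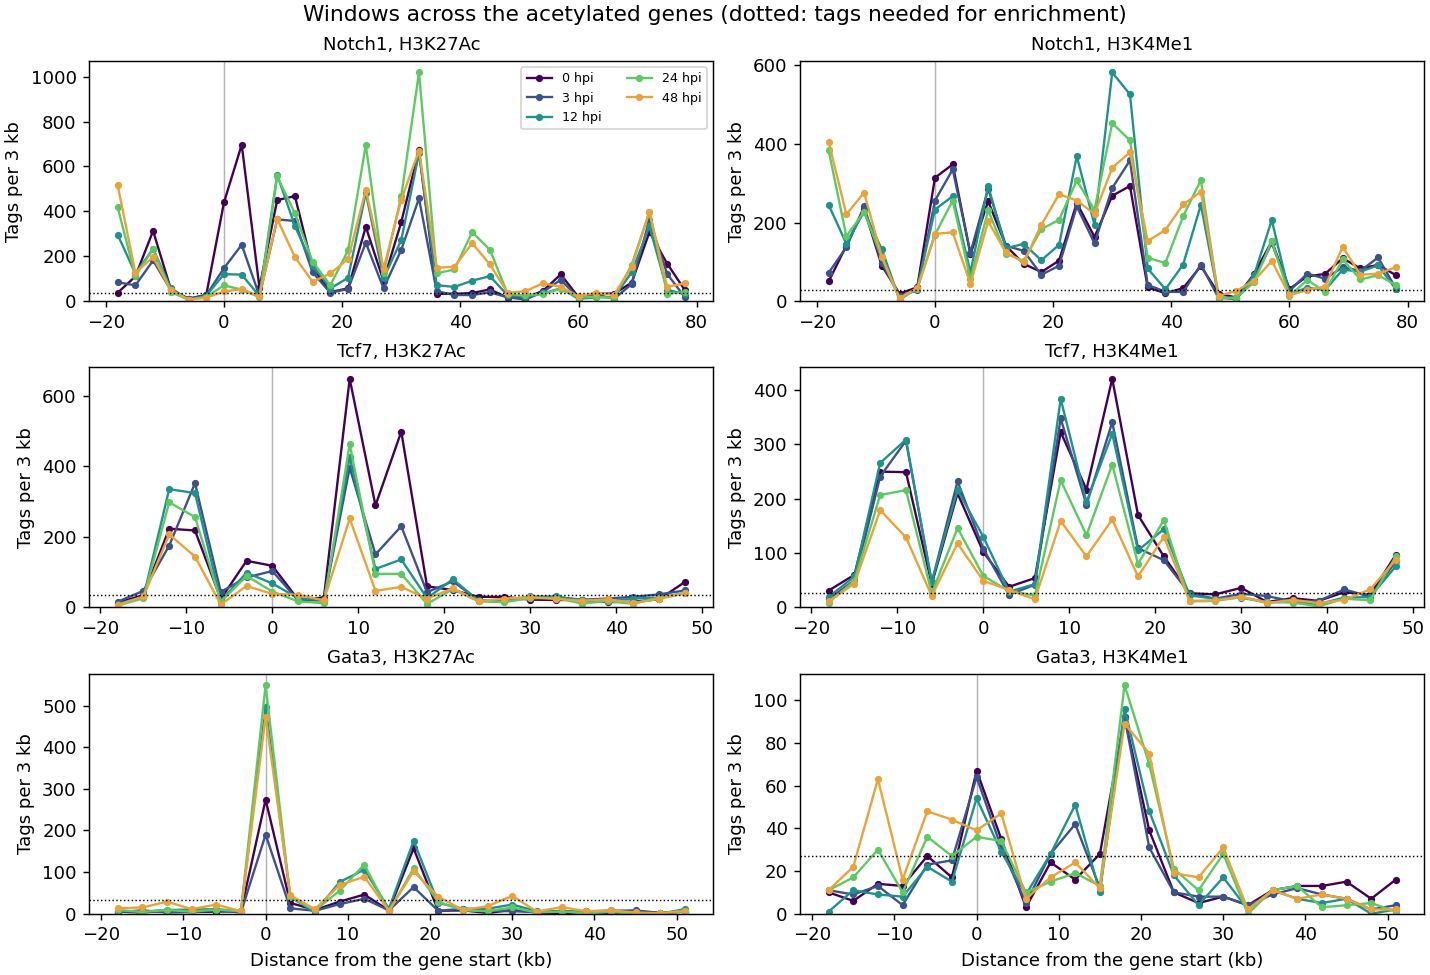
Tags per 3 kb (vertical axes) of H3K27Ac and H3K4Me1 in windows across Notch1, Tcf7 and Gata3 against distance from the 5′ start in the sense direction, with 1 line per time. At Notch1 the H3K27Ac peak at 3 kb goes from 697 to 53 tags while the one 18 kb upstream goes from 37 to 517, at Tcf7 the peak at 15 kb goes from 498 to 58, and the Gata3 start goes from 274 to 473.

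Bcl11b (minus strand, chr12:109148613-109241812) was the only one of the 10 genes without an enriched window for any mark at any time. Its start held 3, 2, 3, 0 and 5 H3K27Ac tags, 1, 0, 0, 1 and 2 H3K4Me1 tags and 5, 4, 7, 9 and 5 H3K27Me3 tags. Over the 44 windows of the 93.2 kb gene and its flanks, single windows held 0 to 10 H3K27Ac, 0 to 10 H3K4Me1 and 0 to 19 H3K27Me3 tags. The locus lay at 0.20 times the genome mean for H3K27Ac at 0 hpi and 0.16 at 48 hpi, and for H3K27Me3 at 0.49 and 0.34 times. How well reads can be placed in this locus was not measured.

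Lck (minus strand, chr4:129225588-129250885) has a pair of promoters, the distal one being the 5′ start. There H3K4Me1 held 81, 51, 31, 35 and 16 tags, a log2 change of -2.03 [-3.21, -1.55], still -1.57 when scaled to bins without enrichment. The start was enriched at the first 4 times and not at 48 hpi. H3K27Ac was not enriched there (24, 10, 19, 14 and 17 tags), and H3K27Me3 held 60, 47, 77, 69 and 71 tags, enriched at 4 of 5 times. The start 15.2 kb in, used by 3 of 4 coding transcripts, held 82, 65, 77, 55 and 39 H3K27Ac tags (-0.98 [-1.66, -0.51], and -0.90 [-1.58, -0.41] from 12 hpi) and 50 to 72 H3K27Me3 tags, so both marks were enriched at it at all times.

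The Lck surroundings held acetylation as well. The window 12 kb upstream (chr4:129261385-129264384), which overlaps no coding gene, held 241, 181, 312, 330 and 240 H3K27Ac tags, as many at the end as at the beginning. The window 3 kb upstream, which overlaps the neighbour Fam167b, held 125, 85, 68, 55 and 54 (-1.14 [-1.70, -0.74]), of which -0.31 fell after 12 hpi. Its loss therefore rests on the H3K27Ac libraries of 0 and 3 hpi.

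The 3 Cd3 genes sit together on chromosome 9, with the Cd3d and Cd3g starts 1362 bp apart, so that their windows share tags. H3K27Me3 held 101, 102, 132, 131 and 132 tags at Cd3d and 122, 115, 161, 150 and 152 at Cd3g. At Cd3e it held 71, 59, 73, 64 and 68. All 3 starts were enriched at all times, and Cd3g had more H3K27Me3 than 99.1% of all starts at 0 hpi and 99.7% at 48 hpi. Their log2 changes were 0.37, 0.31 and -0.06, within the 2-fold limits. H3K27Ac stayed at 2 to 13 tags at these starts, below the genome mean at every time. H3K4Me1 held 30, 23, 14, 34 and 28 tags at Cd3d and 35, 24, 14, 32 and 31 at Cd3g. Both were enriched in it at 0, 24 and 48 hpi, while Cd3e was not at any time.

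Within this H3K27Me3 stretch, 1 acetylated site lay at the 3′ end of Cd3d. The window chr9:44793014-44796013 held 232, 178, 260, 331 and 293 H3K27Ac tags (0.33 [0.08, 0.59], 0.17 from 12 hpi) and 101, 124, 105, 89 and 80 H3K4Me1 tags. H3K27Me3 in it was 23 to 31 tags and not enriched, while the neighbouring windows reached 69 to 84 on one side and 50 to 83 on the other. The site was thus present in pre-B cells and held at each time. An enhancer used in T cells is known downstream of Cd3d, and whether it is this site was not tested.

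Around Cd3e, 15 of 17 windows were enriched in H3K27Me3 at 0 hpi and 17 at 48 hpi, so the longest unbroken stretch went from 21 to 51 kb. The 2 windows that made the difference were the Cd3e start, with 33 and 35 tags per 3 kb where 34 are needed, and the window at 24 kb, with 31 and 41, which overlaps the acetylated site of Cd3d. The largest gain of H3K27Ac near the Cd3 genes lay past Cd3g, inside the ubiquitin ligase gene Ube4a. That window (chr9:44760014-44763013, 27 kb from the Cd3g start) went through 17, 13, 41, 215 and 412 H3K27Ac tags (4.24 [3.90, 5.39], and 3.18 [2.86, 3.83] from 12 hpi) and through 8, 5, 12, 49 and 170 H3K4Me1 tags (3.75). It lies outside the H3K27Me3 stretch, with 3 to 8 H3K27Me3 tags at all times.

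Cd4 (minus strand, chr6:124814710-124838239) had the most H3K27Me3 windows of the 10 loci. Its 5′ start held 93, 97, 107, 85 and 118 H3K27Me3 tags (0.33 [-0.06, 0.75]) and a start 8.5 kb in held 128, 125, 138, 141 and 146 (0.18), both enriched at all times. H3K27Ac at the start 8.5 kb in held only 1, 9, 3, 3 and 10 tags (1.32, and 0.91 from 12 hpi) and was never enriched. Of 21 windows over the locus, 19 were enriched at 0 hpi and 21 at 48 hpi, and the longest stretch went from 30 to 63 kb. The windows that made the difference, 3 kb before the start and at 30 kb, lay just below the limit of 34 tags at 0 hpi. At 3, 12 and 24 hpi, 20, 21 and 20 windows were enriched. The window at 30 kb, at the start of Leprel2, was the only one with at least 2-fold more H3K27Me3, at 30, 37, 43, 42 and 76 tags (1.21 [0.71, 2.00]).

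Just upstream of Cd4, H3K27Ac was at least 2-fold lower at 48 than at 0 hpi, while H3K27Me3 was up by less than 2-fold. The window 3 kb before the start (chr6:124839739-124842738) held 46, 61, 30, 14 and 12 H3K27Ac tags (-1.58 [-2.99, -1.0], and -1.04 [-2.42, -0.31] from 12 hpi) and 73, 67, 59, 40 and 40 H3K4Me1 tags (-0.79, or -0.26 scaled to bins without enrichment). H3K27Me3 in the same window held 31, 53, 38, 44 and 55 tags (0.74 [0.17, 1.51]), with no steady rise, below the limit at 0 hpi and above it at each later time. H3K27Ac was enriched at 0 and 3 hpi only, while H3K4Me1 stayed enriched throughout. H3K27Ac 15 kb upstream, over the neighbour Lag3, held 148, 129, 117, 121 and 77 tags (-0.90, and -0.57 [-1.04, -0.18] from 12 hpi).

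Cd8a (plus strand, chr6:71323421-71329165) carried a flatter H3K27Me3, with 62, 63, 73, 72 and 70 tags at the start (0.16 [-0.34, 0.69]). Of its 15 windows, 9 were enriched at 0 hpi and 8 at 48 hpi, all between 18 kb upstream and 9 kb downstream of the start. Beyond that, H3K27Me3 dropped to 5 to 17 tags per window towards Rmnd5a. No window was enriched in H3K4Me1 at any time, and H3K27Ac was enriched in 1 window at 48 hpi, 18 kb from the start within Rmnd5a, at 13, 14, 18, 25 and 46 tags (1.5 [0.91, 2.84], and 1.15 [0.54, 2.23] from 12 hpi).

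**Figure D5:**
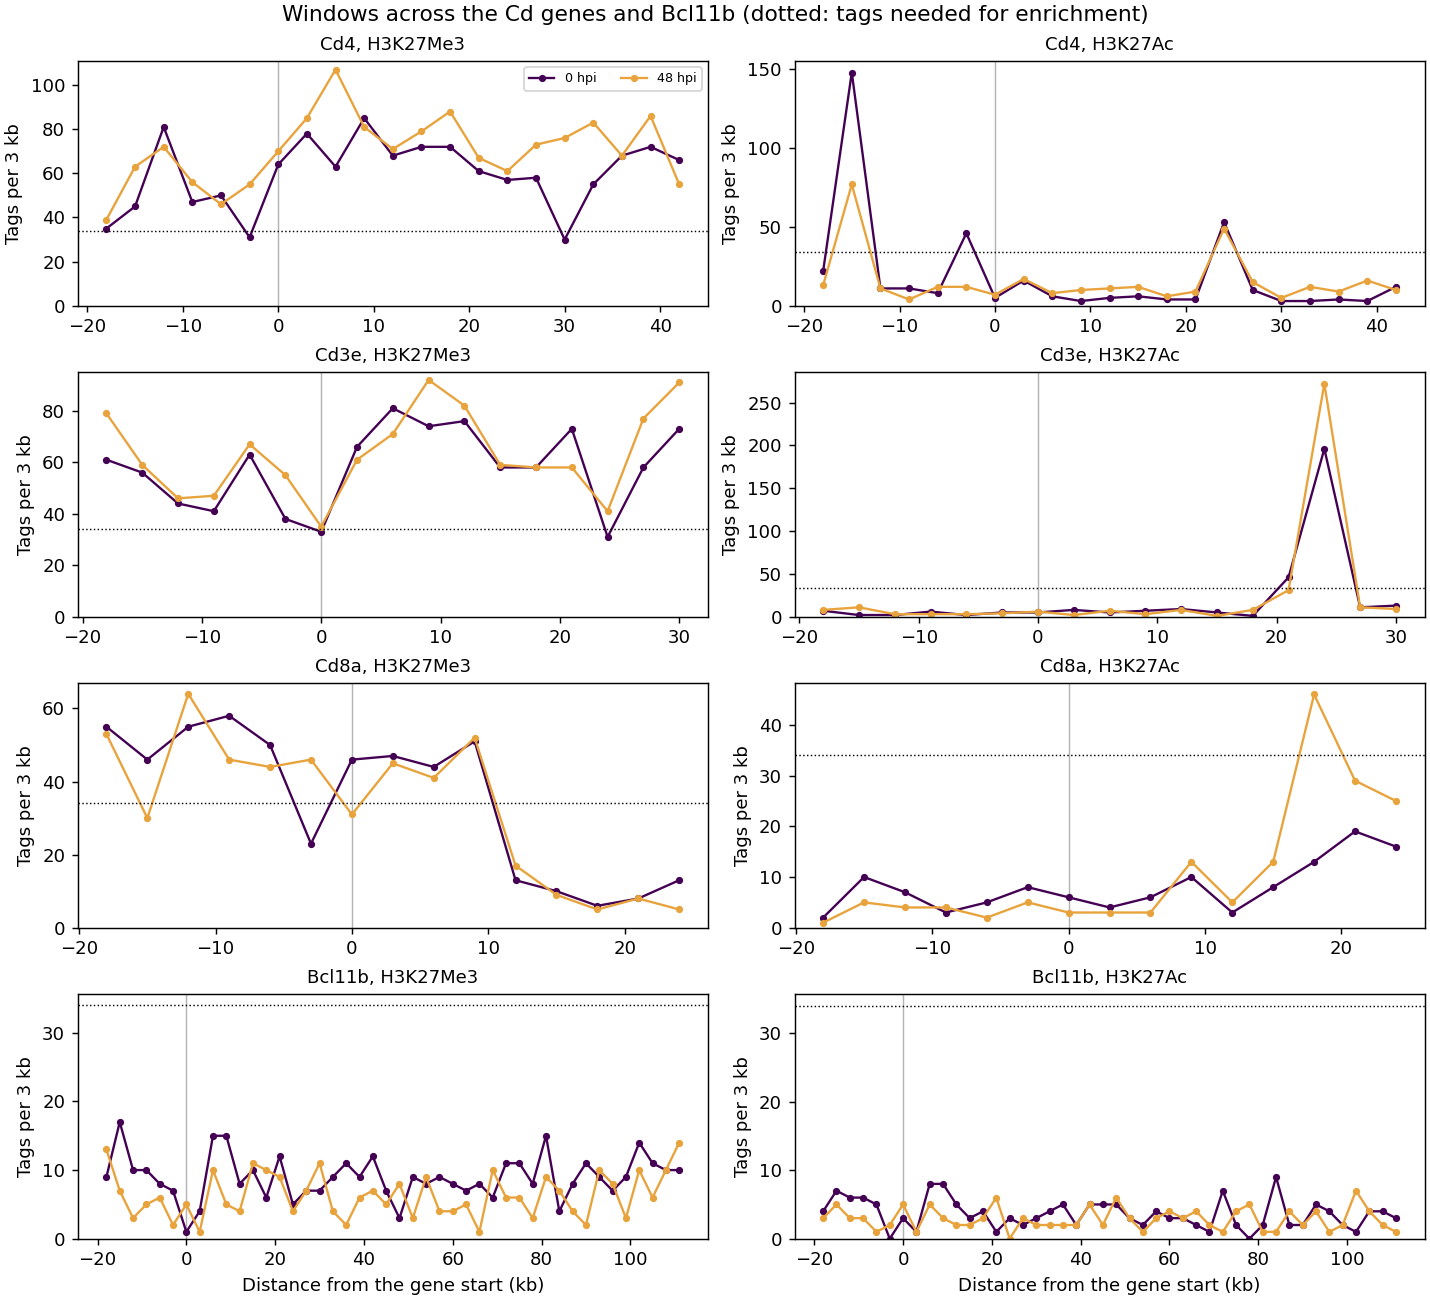
Tags per 3 kb (vertical axes) of H3K27Me3 and H3K27Ac at 0 and 48 hpi in windows across Cd4, Cd3e, Cd8a and Bcl11b against distance from the start in the sense direction. H3K27Me3 lies above the dotted limit in 21 of 21 Cd4 windows at 48 hpi and ends 9 kb past the Cd8a start, and no Bcl11b window reaches the limit.

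Summed over the 231 windows of the 10 loci (those of the Cd3 genes overlap), H3K27Ac was enriched in 23.4% at 0 and 29% at 48 hpi, against 6.31 and 9.26% of all mappable 3 kb windows of the genome. The loci were laid around genes, and 46.3% of all protein-coding starts were enriched at 0 hpi. Windows at starts differ from windows over bodies and flanks, and no share over the bodies and flanks of all genes was computed. Whether a share above that of the whole genome, in any of the 3 marks, is particular to these 10 genes was therefore not tested. Notch1 gave 24 of the 54 enriched windows at 0 hpi and Tcf7 11, and the shares were 15.2 and 19.7% without Notch1 and 10.9 and 16.6% without both. Of the 67 at 48 hpi, 7 lay around Cd3g, where 2 were enriched at 0 hpi. H3K4Me1 was enriched in 38.5 and 35.9%, against 10.3 and 12.2%, and in 24.6 and 23.4% without Notch1 and Tcf7. H3K27Me3 was enriched in 35.5 and 37.7%, against 14.1 and 15.5%, and in 46.9 and 49.7% without Notch1 and Tcf7. Notch1 and Tcf7 had 0 windows enriched in H3K27Me3 at 0 and 48 hpi, so leaving them out can only raise this share. Of the 82 enriched windows at 0 hpi, 15 lay around Cd3e, 13 around Cd3d and 9 around Cd3g, which partly recount the same stretch. Without the libraries of 0 and 3 hpi, 1 of 10 starts (Notch1) was at least 2-fold lower in H3K27Ac from 12 to 48 hpi, where 4.65% of all starts were, and 0 were higher, where 2.33% were. At the CpG-rich Notch1 start 12.8 kb in, that change was -0.87, short of 2-fold.

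A wider list of 30 T cell genes, of which 29 were matched, was read in the same way. At 0 hpi 13 starts had H3K27Ac without H3K27Me3, 10 had H3K27Me3 without H3K27Ac and 4 had none of the 3 marks, while Ccr7 had both H3K27Ac and H3K27Me3 and Runx3 had H3K4Me1 alone. These states too join the H3K27Ac library of 0 hpi to libraries of other marks that differ from it around Adam6. H3K27Ac was enriched at 14 of their starts at 0 hpi and 13 at 48 hpi, where 46.3 and 47.2% of all starts were. Of the 29, 3 were higher and 6 lower, against 5.31 and 9.3% of all starts (median log2 change -0.32). From 12 to 48 hpi 1 was higher and 3 were lower, against 2.33 and 4.65% (median -0.20). These were Lat (1.11) above and Hes1, Lef1 and Il2ra (-1.59, the lowest) below. The lowest change from 0 to 48 hpi was at Hes1, a target of Notch signalling, which went through 543, 476, 150, 113 and 54 H3K27Ac tags (-3.22, and -1.39 [-1.95, -1.02] from 12 hpi). Lef1, a factor related to Tcf7 and also used by early B cells, went through 1154, 899, 499, 477 and 206 (-2.46, and -1.26 [-1.52, -1.04] from 12 hpi). Both were thus lower at 48 than at 12 hpi, but scaled to bins without enrichment they were higher at 24 than at 12 hpi (180 against 139 tags at Hes1 and 759 against 462 at Lef1). The highest change from 0 to 48 hpi was at Lcp2, an adaptor of T cell receptor signalling that myeloid cells also use, with 318, 281, 681, 840 and 769 tags (1.26), of which 0.17 [0.02, 0.33] came after 12 hpi. Dtx1, another Notch target, came next (1.15) but was not enriched at any time, with 2 to 15 tags.

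Lat, Il2ra and the other genes of that list past 2-fold were named after their values were seen. Cd6 was higher from 0 to 48 hpi (1.0) but lower from 12 to 48 hpi, at 149 and 87 tags (-0.74 [-1.17, -0.39]). Cd5 and Il7r were lower from 0 hpi, with -0.74 [-0.92, -0.57] and -0.08 [-0.27, 0.10] from 12 hpi, respectively. Ccr7 held 26 tags at both 12 and 48 hpi, and Thy1, with at most 7 tags, was never enriched. Of the 9 calls from 0 to 48 hpi, only Hes1 and Lef1 were also at least 2-fold from 12 hpi. The calls at Lcp2, Cd6, Cd5, Ccr7 and Il7r rest on the libraries of 0 and 3 hpi. They differ in where the largest step lay. At Cd5 and Ccr7 it lay between 0 and 3 hpi (1113 to 654 and 107 to 36 tags), within the libraries with Adam6 tags. At Lcp2, Cd6 and Il7r it lay between 3 and 12 hpi (281 to 681, 63 to 149 and 1039 to 496). The cause was not tested. At Dtx1 and Thy1 the change from 12 hpi was nearly as large (0.86 and -0.87), on few tags, and only the 2-fold limit was missed. H3K27Me3 was enriched at 11 of the 29 starts at both times, where 21.9 and 23.8% of all starts were, with 0 at least 2-fold higher or lower, against 0.823 and 1.45% (median 0.00). H3K4Me1 was enriched at 15 and 11, where 44.8 and 40.6% of all starts were, with 1 higher and 6 lower, against 3.4 and 9.58% (median -0.42). Of the 6, Cd247, Thy1, Zap70 and Dtx1 were not enriched in H3K4Me1 at any time.

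Short motifs were also counted around the 5′ starts, from 250 bases before to 50 after, on both strands. The PU.1 letters GAGGAA were found at 7 of the 10 genes (28.09% of all starts), the C/EBP letters TTNNGNAA at 6 (38.84%) and the Rbpj letters TGGGAA at 6 (24.31%). The EBF letters CCCNNGGG were found at Bcl11b and Notch1 (15.07%), the Runx letters TGTGGT at Lck (15.24%) and the GATA letters AGATAA at Cd3g (10.31%). C/EBP letters lay both at starts with H3K27Me3 (Cd3d, Cd3e, Cd4 and Cd8a) and at Notch1 and Bcl11b. A match is a description of letters and does not show binding.

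To see which genes looked most like each member, the Euclidean distance was taken over 15 values (log2 of tags plus 5, 3 marks by 5 times) to all genes on other chromosomes or over 100 kb away. The Cd genes and Bcl11b had the closest neighbours, with distances of 0.67 for Cd3e (Dhrs2), 0.75 for Cd8a (Gm10100), 0.82 for Cd4 (Gm10610), 0.86 for Cd3d (Nfyc), 0.96 for Bcl11b (Gm13078) and 1.07 for Cd3g (Gucy2g). The others lay further from any gene, at 1.13 for Gata3 (Otos), 1.24 for Tcf7 (Hs6st1), 1.45 for Lck (Il17rc) and 1.54 for Notch1 (Rab44). The 5 added tags compress differences between low counts, so this order may follow the tag level of a gene, which was not tested. Rab44, the gene nearest to Notch1, went from 284 to 74 H3K27Ac tags, against 440 to 43 at Notch1.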

How the data were processed

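Per the labels, C10 cells were assayed by ChIP-seq for 3 marks at 5 times, with 1 library each. The study's methods state alignment of reads to mm9 with removal of tags that were identical or not uniquely placed, with either Eland or Bowtie as the aligner, while the submitters' processing notes name Bowtie. Whether Eland made any of these libraries is not given in the sources used here. The deposited files hold no counts or normalized values but 1 line per tag of 36 bp, and 3 of them ended in lines without a position, which were dropped.

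From these, 1 tag per position was kept, because the deposited files treated identical tags differently. Tags were placed at their middle, 18 bp from the start, and random thinning brought all libraries of a mark to the size of the smallest (15.22 M tags for H3K27Ac, 10.91 M for H3K4Me1, 15.34 M for H3K27Me3). Starts are the 5′ ends of protein-coding genes of GENCODE vM1 on NCBIM37 (mm9), and further coding starts of a member were kept when over 1.5 kb apart. Windows of 3 kb were stepped over each gene and 20 kb on each side. Mean levels are over mappable windows (832530 of 3 kb). Sequences were read from the same genome. All members, the windows with the most H3K27Ac and those with the largest change were named, and from each list the 2 genes with the largest H3K27Ac changes in each direction, of which 1 is not reported here. The Tcf7 window 12 kb upstream, the Cd4 window at 30 kb, the Gata3 upstream windows in H3K27Me3 and the 300-base stretches at Notch1 and Tcf7 were chosen after their values were seen.

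With 1 library per mark and time there was no test between times. Counting intervals are exact (binomial for ratios) and cover neither biological spread nor PCR copies at different positions. Members, lists and windows were chosen with earlier results of these data known. Counts and intervals were tested on simulated data. Python 3.11.15, NumPy 2.4.6, SciPy 1.17.1, pandas 2.3.3 and matplotlib 3.10.9 were used.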

Additional observations from a re-analysis of the deposited data

How the results depend on the processing

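No paired analysis was possible because the single library of each group left nothing to pair. Over 12 alternatives, 45 results gave 406 values, of which 374 stayed within their counting interval or within 1.5 times the count and 32 moved. Some changed sign. H3K27Me3 at Cd8a went from 0.16 to -0.58 in windows of 2 kb, and H3K27Ac at Gata3 from 0.78 to -0.07 when taken from 12 hpi. The H3K27Ac median went from -0.09 to 0.2 scaled to bins enriched at all 5 times. The causes were not tested. H3K4Me1 starts at least 2-fold lower, 3 as reported, came to 1 scaled to background bins and 1 in windows of 2 times the length. They came to 5 with 1 tag added in place of 5. With all tags scaled by library total, windows of 1 kb or the start used by most coding transcripts, they came to 2. They were also 2 with tags as deposited and with another random thinning. Only scaling to bins enriched at all 5 times kept 3. H3K27Ac starts higher, 0 as reported, came to 1 (Gata3) scaled to bins enriched at all 5 times (1.18) and in windows of 1 kb (1.03), and the lower ones, 2 as reported, to 1 from 12 to 48 hpi, an alternative added after seeing the data along with another random thinning. H3K4Me1 starts enriched at 48 hpi, 5 as reported, came to 1 in windows of 1 kb, 3 at a Poisson limit of 1e-05 and 0 against a local mean over 100 kb. Against that local mean, starts enriched in H3K27Ac at 48 hpi came to 1 in place of 3, and in H3K27Me3 to 3 in place of 6 at 0 hpi and 4 in place of 7 at 48 hpi. The local mean counts the broad stretch itself as background. Depth limits the unmarked starts, where changes rest on a few tags, and Notch1 at its CpG-rich start (-1.24) and Lck at its inner start (-0.47 in H3K4Me1) changed less than at their 5′ ends.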
